A study of Homo sapiens with 4 samples.

Results

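Described here are 10 genes by which plasma cells and myeloma cells are known, namely the surface antigens SDC1, CD38, TNFRSF17, TNFRSF13B, SLAMF7, CD27, CD28 and FCRL5 and the secretory genes JCHAIN and MZB1. They form a list of names by known function, chosen with earlier results of these data known. No threshold on an array value enters the rule. Every probe set annotated to 1 of these genes alone was used, 20 of the 41097 probe sets that named exactly 1 gene, and the genes were 10 of 19775. The cells were MM.1S, an established human multiple myeloma line grown alone in culture. The groups were a DMSO control, whose label gave no culture time, and cells given MLN4924 at 250 nM for 8, 16 or 24 h. MLN4924, also called pevonedistat, blocks the enzyme that activates NEDD8, a small protein whose attachment keeps cullin-RING ubiquitin ligases active. Each group was 1 Affymetrix array, and the question was how treated cells differed in expression from control cells at each time.

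Plasma cells are the antibody-secreting end stage of the B lineage, and myeloma is their malignant form. On their surface, syndecan-1 and the receptors of the TNF and SLAM families bind growth factors, matrix and neighbouring cells, and several of these proteins are targets of antibodies and engineered T cells in myeloma treatment. Inside the cell, the J chain links IgA and IgM into polymers and MZB1 helps the endoplasmic reticulum (ER) assemble antibody.

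With 1 array per group there was no spread between replicates, no test was possible, and the 3 comparisons with control share the control array. Every difference below is that of a single array from another, and fewer expressing cells cannot be told apart from less RNA per cell. A stand-in for technical spread was the disagreement between probe sets of the same gene, over 5719 genes with at least 2 measured probe sets. For log2 differences from control this pooled SD came to 0.16 (8 h), 0.19 (16 h) and 0.18 (24 h), without the spread between cultures. Deposited array medians were 92.2 to 95.4 intensity units, and the ratio of 3' to 5' probe sets was 1.18 to 1.21 for GAPDH and 1.95 to 2.21 for ACTB. A gene counted as measured when the mean of its brightest probe set exceeded 93.9 units, the median over probe sets, which held for 12446 genes. Among the 10 genes 9 were measured, with 15 probe sets, and FCRL5 was not. Probe sets differ in how brightly they bind, so levels are compared between arrays and never between probe sets.

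All 8 listed plasma cell markers were measured on these arrays, among them the transcription factor genes IRF4, PRDM1 and XBP1. Over the whole series 12446 of 19775 genes were measured. Of the B cell list 5 of 10 genes were also measured, namely HLA-DRA (3721 to 4372 units), CR2, CD79B, CD22 and CD79A, while MS4A1 (CD20) and PAX5, the B cell identity factor, had means under the filter. For T and NK cells 6 of 10 were measured, namely TRAT1 (594 to 1628 units), CD5, CD3G, CD3E, LCK and GNLY. The last 4 of these lay near the filter, between 83.9 and 123 units. The T cell receptor subunit CD3D and the adhesion receptor CD2 lay at 66.0 to 89.1 and 35.2 to 42.6 units. Few markers of myeloid cells (2 of 8), stromal fibroblasts (1 of 6) and erythroid cells (1 of 4) were measured, the last of them the globin gene HBB at 995 to 1219 units.

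None of the 9 measured genes differed at least 2-fold from control at any of the 3 times. Among all 12446 measured genes, 0.249% did so at 8 h, 0.675% at 16 h and 0.707% at 24 h. At least 1.5-fold was likewise reached by 0 of 9 genes at each time, against 1.86%, 4.97% and 5.16% of all measured genes at 8, 16 and 24 h. The median difference of the 9 genes was -0.16 (log2) at 8 h, -0.033 at 16 h and 0.062 at 24 h, and that of all measured genes 0.007, 0.026 and 0.016. At 8 h 8 of 9 genes were below control, where 48.3% of all measured genes were. At 16 h 5 of 9 were below and at 24 h 4 of 9, beside 45.7% and 47.4% of all genes. By brightest probe set all but CD27 were thus below control at 8 h, from -0.10 (JCHAIN) to -0.40 (TNFRSF13B). Of the 15 measured probe sets 12 were below control at 8 h, and the dimmer CD28 probe sets were above it (0.26 and 0.30). The genes were about evenly divided later, as the plot of intensities by array shows gene by gene.

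**Figure D1:**
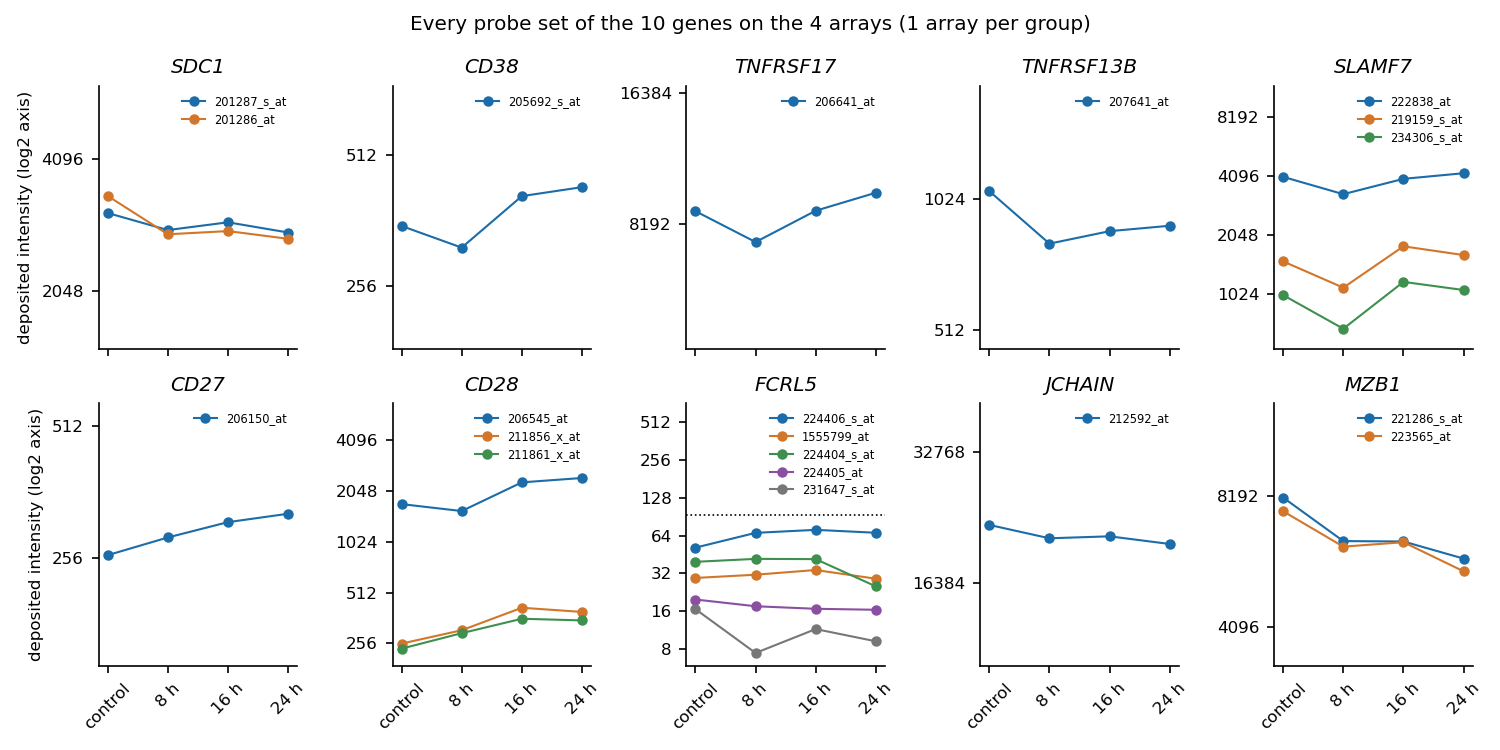
Deposited intensity (log2 axis, own range in each panel) of all 20 probe sets of the 10 genes on the control array and after 8, 16 and 24 h of MLN4924, 1 point per array. The dotted line in the FCRL5 panel is the filter at 93.9 units. SLAMF7, TNFRSF17 and CD38 are lowest at 8 h, both MZB1 probe sets are below control at each time, and all 5 FCRL5 probe sets stay under the line.

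Promoters are shown for CD28, MZB1 and TNFRSF13B, the 3 genes with the largest differences in size from control by brightest probe set. RefSeq sequence of build GRCh38.p14 was available for 8 of the 10 genes, and TNFRSF17 and SLAMF7 were the others. The windows searched were the 250 bases before the start used in the RefSeq promoter table. The CD28 window reaches 157 bases into the annotated gene, so only its 93 bases before the gene are printed, while MZB1 and TNFRSF13B are printed whole. The runs, 5' to 3' on the gene's strand, lie at chr2:203706389-203706481 (plus strand) for CD28, chr5:139389914-139390163 (minus strand) for MZB1 and chr17:16972119-16972368 (minus strand) for TNFRSF13B. Capitals mark matches to 7 motifs searched on both strands.

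CD28: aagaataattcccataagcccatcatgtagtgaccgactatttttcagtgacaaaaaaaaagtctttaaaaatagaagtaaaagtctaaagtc

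MZB1: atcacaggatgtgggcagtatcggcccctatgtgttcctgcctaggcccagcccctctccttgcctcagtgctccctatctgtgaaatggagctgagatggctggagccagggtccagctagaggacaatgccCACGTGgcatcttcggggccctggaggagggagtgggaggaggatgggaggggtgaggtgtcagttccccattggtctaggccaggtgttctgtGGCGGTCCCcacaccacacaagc

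TNFRSF13B: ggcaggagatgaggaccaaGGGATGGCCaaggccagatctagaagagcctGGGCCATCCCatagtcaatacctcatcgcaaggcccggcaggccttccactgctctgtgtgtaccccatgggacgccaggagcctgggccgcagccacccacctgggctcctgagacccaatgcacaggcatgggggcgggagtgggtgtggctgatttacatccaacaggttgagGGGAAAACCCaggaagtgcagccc

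The motifs were the octamer ATTTGCAT, an IRF element GAAANNGAA, a kappaB element GGGNNNNCC, the antioxidant response element core TGACNNNGC, the CRE and UPR core TGACGT, the E-box CACGTG and the TATA box TATAAA. Windows of this length hold the kappaB letters in 48.5% of 35116 promoters and CACGTG in 6.34%. The kappaB letters were found in the windows of 4 of the 8 genes (SDC1, TNFRSF13B, FCRL5 and MZB1). SDC1 had more than a single window, and its matches lay only in one with all 250 bases inside the annotated gene. CACGTG was found in the window of MZB1 alone and the IRF letters in that of CD38 alone, the last in 6.88% of all promoters. The octamer (1.63% of all promoters), the antioxidant core (10.9%), the CRE core (7.10%) and the TATA letters (10.7%) were found in none of the 8. The whole CD28 window held no match. A match is a description of the letters and not a shown binding site.

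SDC1 encodes syndecan-1 (CD138), the heparan sulfate proteoglycan used to sort plasma cells (chromosome 2, 20200797 to 20225475). Probe set 201287_s_at had 3087 units in control cells and 2821, 2939 and 2785 after 8, 16 and 24 h of MLN4924. Probe set 201286_at had 3377 units in control cells and 2759, 2806 and 2694 at the same times. Each treated array was below the control array in both probe sets, and the treated arrays were close to each other. The brighter probe set on the mean, 201287_s_at, gave -0.13, -0.071 and -0.15 (log2), all within 1 pooled SD, and 201286_at gave -0.29, -0.27 and -0.33.

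CD38, an ectoenzyme that consumes NAD (chromosome 4, 15778328 to 15853232), was represented by 1 probe set. Its intensity was 352 units in control cells and 314, 412 and 432 at 8, 16 and 24 h. The 8 h array was thus the lowest and the later pair the highest. Against control these are -0.16, 0.23 and 0.30 (log2), or 1.23-fold at 24 h, and 13.2% of measured genes lay at least that far above control at 24 h. Between times, 16 h stood 1.31-fold above 8 h, a step of 0.39 (log2) that 6.45% of measured genes reached.

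SLAMF7 encodes CS1, a homophilic receptor of the SLAM family and an antibody target in myeloma (chromosome 1, 160739057 to 160754821). Probe set 222838_at had 4069 units in control cells and 3322, 3977 and 4248 at 8, 16 and 24 h. The dimmer 219159_s_at had 1509.5 in control cells and 1109, 1802 and 1626, and 234306_s_at had 1016 in control cells and 685, 1187 and 1079. All 3 probe sets were lowest at 8 h, at -0.29, -0.45 and -0.57 (log2) from control. At 24 h they lay within 0.062 to 0.11 above control. At 16 h they disagreed in sign, at -0.033 for 222838_at and 0.26 and 0.23 for the others. Sizes also differed for the step from 8 to 16 h, which was 1.20-fold in 222838_at, 1.62-fold in 219159_s_at and 1.73-fold in 234306_s_at. Those last were the 2 of 15 probe sets of these genes at least 1.5-fold apart between 16 h and 8 h, where 3.63% of 22237 measured probe sets were. Between 24 h and 16 h it was 0 of 15, with 1.06% of all.

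TNFRSF17 and TNFRSF13B encode BCMA and TACI, related receptors for the ligands BAFF and APRIL, which keep plasma cells alive. TNFRSF17 (chromosome 16, 11965210 to 11968068) had 8763 units in control cells and 7445, 8783 and 9658 at 8, 16 and 24 h, in its only probe set. It was lowest at 8 h and highest at 24 h, at -0.24, 0.003 and 0.14 (log2) from control, and from 8 to 24 h it differed 1.30-fold. TNFRSF13B (chromosome 17, 16939081 to 16972118) had 1066 units in control cells and 808, 863 and 888 at those times, also in its only probe set. Each treated array was below control, and the difference was largest at 8 h and smaller at each later time, at -0.40, -0.31 and -0.26 (log2). The 8 h value was 2.51 times the pooled SD, and 3.57% of measured genes were at least as far below control. In fold terms, TACI mRNA at 8 h was 0.758 of control and BCMA mRNA 0.850.

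Of the other genes of the BAFF and APRIL system, 10 of 13 were measured, and their median stood at -0.002, 0.089 and 0.15 (log2) at 8, 16 and 24 h. Above control were 5, 7 and 8 of them, and 0 were past 2-fold. CAMLG, whose product CAML binds TACI, had 1268 units in control cells and 1469, 1966 and 1880.2 at 8, 16 and 24 h (0.21, 0.63 and 0.57). ADAM10, a protease that sheds TACI, was below control at each time (-0.38, -0.43 and -0.30), with 3983 units in control cells and 2963 to 3245 in treated cells. FURIN, the protease that releases the ligands in soluble form, stood at 0.15, 0.42 and 0.28. The ligand gene TNFSF13B (BAFF) was not measured, and TNFSF13 (APRIL) had 179 units in control cells and 134, 182 and 204 in treated cells.

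CD28 and CD27 are better known as co-stimulatory receptors of T cells and are also carried by plasma cells. CD28 (chromosome 2, 203706482 to 203738912) had the largest difference of the 9 genes. Its probe set 206545_at had 1714 units in control cells and 1559, 2307 and 2449 at 8, 16 and 24 h. Probe set 211856_x_at had 255 in control cells and 306, 416 and 393, and 211861_x_at had 238 in control cells and 294, 358 and 350.0. The 16 and 24 h arrays were above both the control and the 8 h array in all 3 probe sets. At 8 h the probe sets disagreed in sign, with -0.14 (log2) in 206545_at and 0.26 and 0.30 in the dimmer pair.

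At 24 h the CD28 probe sets gave 0.51, 0.63 and 0.56 (log2), or 1.43-, 1.54- and 1.47-fold, and at 16 h 0.43, 0.71 and 0.59. The value of 206545_at at 24 h was 2.85 times the pooled SD, and 4.02% of measured genes lay at least as far above control. Of the 15 measured probe sets, 0 differed at least 1.5-fold from control at 8 h (1.78% of all measured probe sets), 2 at 16 h (5.15%) and 1 at 24 h (4.74%), and these were the dimmer CD28 probe sets. Probe sets with the suffix _x_at can bind related transcripts. In the T and NK cell list, TRAT1, an adaptor of the T cell receptor, stood at 594 units in control cells and 1352, 1357 and 1628 at 8, 16 and 24 h. The summed intensity of the 6 measured genes of that list was 1226 in control cells and 1973, 2003 and 2270.2 in treated cells. Without TRAT1, a choice made after its values were seen, it was 631 in control cells and 621, 646 and 642 in treated cells. Of the 6 measured genes of the list 3, 4 and 4 were above control at 8, 16 and 24 h. GNLY (granulysin) had 83.9 units in control cells and 84.1, 112 and 123 later. The first 2 of these values are under the filter level of 93.9 units. GNLY thus counts as measured only through the 16 and 24 h arrays, where it was high. CD3E and CD3G were below control at 16 and 24 h. The part of these genes in the CD28 result was not tested.

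CD27 (chromosome 12, 6443892 to 6451713) was the only measured gene of the 9 above control at each time by brightest probe set. It had 259.6 units in control cells and 285, 309 and 323 at 8, 16 and 24 h in 1 probe set. The differences of 0.13, 0.25 and 0.31 (log2) came to 1.24-fold at 24 h, which is 1.74 times the pooled SD, and 11.9% of measured genes were at least as far above control. Of 8 partners of CD27 and CD28, 7 were measured and 0 differed 2-fold, with medians of 0.11, 0.098 and 0.050 at the 3 times, and 5, 5 and 4 above control. The CD27 ligand CD70 stood at 757 units in control cells and at 752, 843 and 723 at 8, 16 and 24 h. The CD28 ligand CD86 stood at 178 in control cells and at 162, 207 and 205 later. SIVA1, which binds the tail of CD27, was at 0.25, -0.27 and -0.45 (log2), and CTLA4, which shares the ligands of CD28, at 0.33, 0.18 and 0.20.

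**Figure D2:**
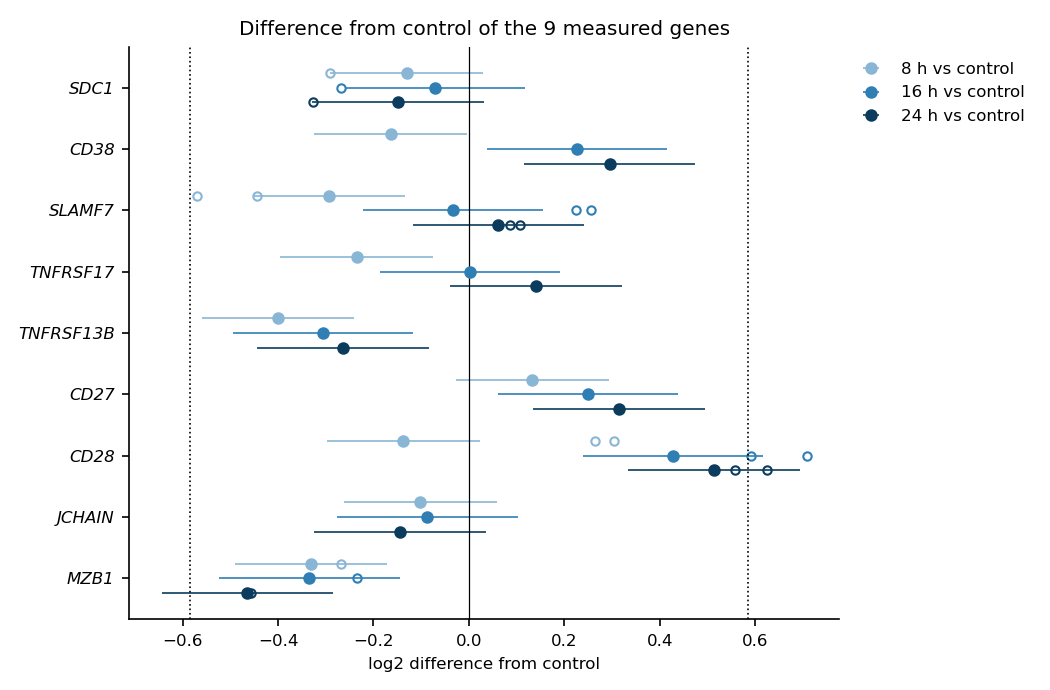
Log2 difference from control of the 9 measured genes at 8, 16 and 24 h (light to dark). Filled points are the brightest probe set of each gene, with bars of 1 pooled SD between probe sets of a gene (0.16, 0.19 and 0.18), and open points its other measured probe sets. Dotted lines mark 1.5-fold, which only 2 open CD28 points pass at 16 h and 1 at 24 h, while MZB1 and TNFRSF13B lie left of 0 at each time.

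FCRL5, an Fc receptor-like protein of the B lineage (chromosome 1, 157513377 to 157552515), had 5 probe sets, and none passed the filter. The brightest, 224406_s_at, had 51.3 units in control cells and 67.2, 71.0 and 67.3 in treated cells. The other 4 lay between 7.50 and 41.8 units, below the floor of 48.4 that was set on low values, where the order of arrays has no meaning. No difference is therefore given for FCRL5 in MM.1S cells. Of its 7 listed relatives 2 were measured, with medians of -0.006, 0.093 and 0.11 and 0 past 2-fold. FCRLA was at -0.17, 0.12 and 0.22 and FCRL2 at 0.16, 0.068 and -0.013, so 1 of the 2 was above control at 8 h, 2 at 16 h and 1 at 24 h.

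JCHAIN encodes the small protein that joins IgA and IgM units (chromosome 4, 70655541 to 70666508). Its probe set had 22314 units in control cells and 20794, 21011 and 20178 at 8, 16 and 24 h. Treated cells were below control at each time, by -0.10, -0.087 and -0.15 (log2), and all 3 values were within 1 pooled SD. At 24 h 25.7% of measured genes were at least as far below control.

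MZB1, a co-chaperone of the ER in B and plasma cells (chromosome 5, 139387467 to 139389913), had the largest negative difference by brightest probe set. The dimmer SLAMF7 probe set 234306_s_at was further below control, at -0.57 (log2) at 8 h. Probe set 221286_s_at had 8119 units in control cells and 6454, 6441 and 5885 at 8, 16 and 24 h. Probe set 223565_at had 7553 in control cells and 6268, 6416 and 5503. In both probe sets each treated array was below control and the 24 h array was the lowest. The differences were -0.33, -0.33 and -0.46 (log2) in the first and -0.27, -0.24 and -0.46 in the second. At 24 h MZB1 mRNA was at 0.725 of control, 2.58 times the pooled SD, and 4.55% of measured genes were at least as far below. JCHAIN and MZB1 thus lay on the same side of control at each time, with MZB1 the further from it.

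**Figure D3:**
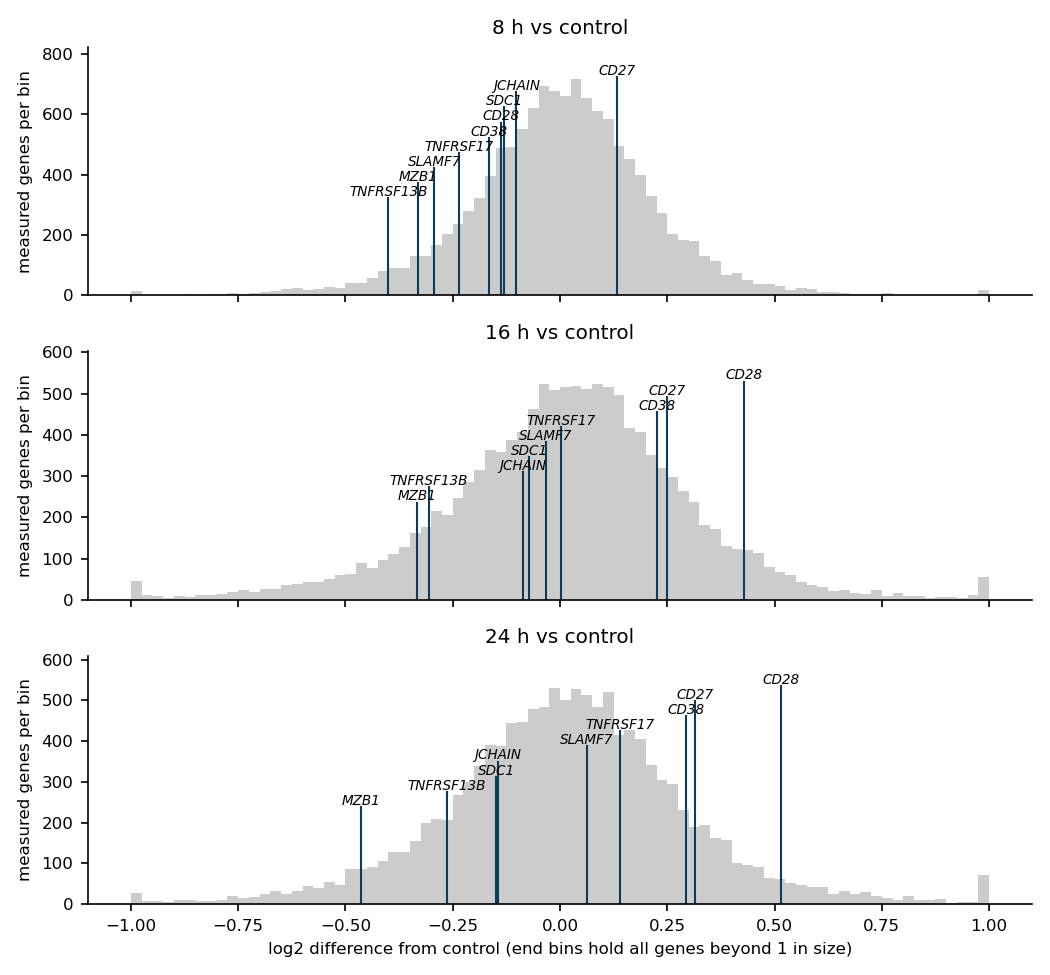
Histograms of the log2 difference from control of all 12446 measured genes at 8, 16 and 24 h. Lines mark the 9 genes by brightest probe set (line height has no meaning). All but CD27 lie left of 0 at 8 h, and at 24 h MZB1 (-0.46) and CD28 (0.51) stand at opposite flanks of the distribution.

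Genes that work beside JCHAIN and MZB1 in antibody secretion were mostly below control. Of 16 listed, 14 were measured, 11 were below 0 at 8 h and 10 at 16 and at 24 h, with medians of -0.12, -0.17 and -0.13 (log2) and 0 past 2-fold. Of all measured genes 48.3%, 45.7% and 47.4% were below 0 at 8, 16 and 24 h. HSP90B1 encodes GRP94, the chaperone with which MZB1 works. It had 6089 units in control cells and 5115, 4178 and 4421 at 8, 16 and 24 h (-0.25, -0.54 and -0.46), in an _x_at probe set. DERL3, of ER-associated degradation, was at -0.21, -0.43 and -0.57, and HSPA5, the chaperone BiP, at -0.29, -0.45 and -0.16. The lambda light chain probe set of IGLC1 had 38884 units in control cells and 38596, 37917 and 37406 at 8, 16 and 24 h. It was near control at each time (-0.011, -0.036 and -0.056), and IGLL5 was at -0.14, -0.18 and -0.16. Lambda genes share sequence that a probe set may not separate.

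The plasma cell transcription factors were all measured, 8 of 8, with medians of -0.14, 0.038 and 0.017 (log2) and 0 past 2-fold. Above control were 3 at 8 h and 5 at each later time. IRF4, on which myeloma cells depend, was lowest at 8 h, with 4678 units in control cells and 3829.9, 5160.1 and 5144 at 8, 16 and 24 h. IKZF3 (Aiolos) was furthest from control at 8 h (-0.58) and stood at -0.20 and -0.11 later. PRDM1 (Blimp-1), which fixes plasma cell fate, was above control at each time (0.26, 0.34 and 0.29).

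Of 9 listed relatives of SLAMF7 and adaptors of the SLAM family 5 were measured, and 4 were above control at each time. Their medians were 0.098, 0.40 and 0.37 (log2), with 0 past 2-fold. The 1 gene below control was LY9 at 8 h and the adaptor gene SH2D1A at 16 and 24 h. SH2D1A had 84.6 to 106 units, near the filter. Of all measured genes 48.3%, 45.7% and 47.4% were below control at 8, 16 and 24 h. LY9 (CD229) had 964 units in control cells and 924, 1271 and 1439.8 at 8, 16 and 24 h (-0.061, 0.40 and 0.58). SLAMF6 was at 0.26, 0.74 and 0.46 from a control level of 212 units, and CD84 at 0.49, 0.44 and 0.25 from 102 units, near the filter. At 8 h SLAMF7 itself was below control in each probe set, as LY9 was, while SLAMF6 and CD84 were above.

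Around CD38, 4 of 6 listed ectoenzymes and NAD genes were measured, of which 3, 4 and 4 were above control, with medians of 0.071, 0.35 and 0.25 (log2). NT5E (CD73), which makes adenosine, was the single gene past 2-fold, at 131 units in control cells and 152, 327 and 376 at 8, 16 and 24 h (0.21, 1.32 and 1.52). ENPP1, an ectoenzyme that splits nucleotides, was at 0.057, 0.50 and 0.47, and ADA, which breaks down adenosine, at -0.10, 0.20 and 0.034. BST1, the gene most closely related to CD38, was not measured.

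Around SDC1, 13 of 15 listed syndecans and heparan sulfate genes were measured, with medians of 0, -0.047 and 0.071 (log2), 6, 6 and 9 above control and 0 past 2-fold. SDCBP (syntenin), which binds the tail of syndecans, was at 0.073, 0.51 and 0.52. EXT1, of heparan sulfate chain synthesis, was at 0.32, 0.53 and 0.38, and HPSE, the heparanase that cuts the chains, at 0.007, -0.26 and -0.49. HPSE had 188 units in control cells and 188, 156 and 134 at 8, 16 and 24 h.

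**Figure D4:**
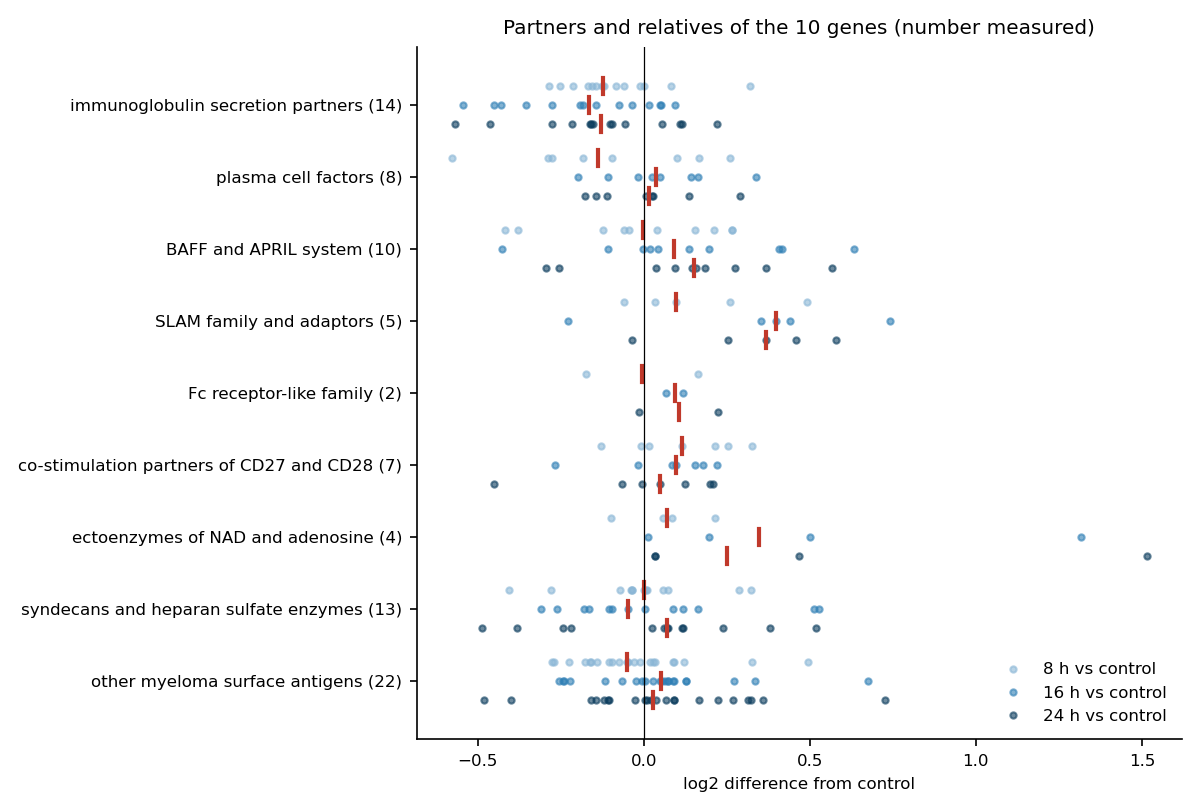
Log2 difference from control at 8, 16 and 24 h (light to dark) of each measured gene in 9 lists of partners and relatives, with the number measured in brackets and the list median as a red bar. Antibody secretion genes lie mostly left of 0 (medians -0.12, -0.17 and -0.13), and NT5E (1.32 and 1.52) is the only gene past 1.

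The measured genes with courses most like those of CD28 and MZB1 were sought among 12445 others, by Euclidean distance over the 3 differences from control. Nearest to CD28 were RRBP1, a ribosome-binding protein of the ER (distance 0.033), HHAT, which attaches palmitate to Hedgehog proteins (0.043), and ST3GAL6, a sialyltransferase (0.050). RRBP1 had 2509 units in control cells and 2240.2, 3421 and 3586 at 8, 16 and 24 h. Nearest to MZB1 were DHX57, a putative helicase (0.036), ALDH1B1, a mitochondrial aldehyde dehydrogenase (0.047), and HLCS, which attaches biotin to enzymes (0.048). Such likeness was common, since 162 genes lay within a distance of 0.2 of CD28 and 233 within 0.2 of MZB1. The 3 differences share the control array, so its deviation enters each of them.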

How the data were processed

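Per the labels' protocols, Trizol was used to extract total RNA from MM.1S cells, and labelled cRNA went onto Affymetrix arrays. The deposited values are intensities on a linear scale, 1 per probe set. How the authors summarised, background-corrected and normalized them is not given in the sources used here. No normalization was added, since the medians of the arrays lay within 0.048 (log2) of each other, short of a set limit of 0.3. The array annotation (41097 of 54675 probe sets with 1 gene, 1801 with several, 11777 not listed) was joined to RefSeq gene names of GRCh38.p14 by Entrez identifier.

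Before log2 was taken, low values were replaced by the 25th percentile (48.4 units), and the brightest probe set stood for each gene. With 1 array per group differences were counted at 2-fold and 1.5-fold without a test. Alternatives covered normalization, floor, probe set choice, filter and fold. All 10 genes were named with every probe set, from each list up to 3 measured genes with the largest difference, measured cell type markers, and the 3 nearest genes of CD28 and MZB1. TNFSF13, CD70, SH2D1A, IGLC1, IGLL5, GPRC5D and genes named as not measured were added after their values were seen. The genes and lists were chosen with earlier results of these data known. The procedure was tested on simulated data. Python 3.11.15, numpy 2.4.6, pandas 2.3.3 and matplotlib 3.10.9 were used.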

Additional observations from a re-analysis of the deposited data

How the results depend on the processing

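The count of genes at least 2-fold from control was 0 at each time under all 8 alternatives that refit the data and with 1.5-fold in its place. With the median of all probe sets of a gene, 1 gene (CD28) was at least 1.5-fold from control at 16 h and 1 at 24 h, where 0 were otherwise. That median takes a dimmer CD28 probe set, at 0.26, 0.71 and 0.63 (log2) at 8, 16 and 24 h, and it put SLAMF7 at 0.26 at 16 h. The median of the genes ranged from -0.25 to -0.15 at 8 h, from -0.066 to 0.003 at 16 h and from -0.042 to 0.11 at 24 h, so its sign at the later times depends on the setting. Without probe sets named _x_at and _s_at SDC1 stood at -0.29 at 8 h and -0.27 at 16 h, and with quantile normalization at -0.30 at 8 h. CD38 has no probe set left in the first of these. Of 213 values of single genes 6 moved by over 1 pooled SD and 3 changed sign, the third TNFRSF17 at 16 h (-0.030) with array medians centred, which moved the median of all genes by under 0.1. Centring left 8 of 9 genes below control at 8 h, beside 58.2% of all measured genes in place of 48.3%. With the filter at the 75th percentile that share was 52.4%. With the median of a gene's probe sets 7 of 9 genes were below control at 8 h, beside 48.5% of all. No paired analysis was possible because each group is 1 array and the labels give no replicate numbers. No array could be left out, since each group would vanish with it. The 4 arrays limit precision, and no detection calls were used.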

Other observations

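Other surface antigens of myeloma cells were 22 measured of 24 listed, with medians of -0.049, 0.053 and 0.029 (log2) at 8, 16 and 24 h, 8, 14 and 14 above control and 0 past 2-fold. LAX1, a membrane adaptor that dampens lymphocyte signalling, had 1074 units in control cells and 1347, 1717 and 1778 at 8, 16 and 24 h (0.33, 0.68 and 0.73). TFRC, the transferrin receptor, was highest at 8 h, with 8317 units in control cells and 11707, 10047 and 10337 later. The chemokine receptor CXCR4, which holds plasma cells in the marrow, was below control at each time (-0.27, -0.24 and -0.48). GPRC5D, an orphan receptor and immunotherapy target, had 1289 units in control cells and 1104, 1231 and 1613 at 8, 16 and 24 h, lowest at 8 h and highest at 24 h as TNFRSF17 was.

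In the B cell list CR2 (CD21), the complement receptor, had 633 units in control cells and 504, 360.4 and 333 at 8, 16 and 24 h (-0.33, -0.81 and -0.93), while the list's medians were 0.013, 0.17 and 0.042 over 5 measured genes. CD79A and CD79B, the signalling chains of the B cell receptor, were at 0.13, 0.17 and 0.32 and at 0.013, 0.26 and 0.094. The medians of the T and NK cell list were -0.023, 0.079 and 0.046, and of the myeloid list 0.11, 0.12 and 0.20. The myeloid list rested on MPO (0.40, 0.28 and 0.43) and S100A9 (-0.17, -0.036 and -0.038). MPO had 89.1 units in control cells, under the filter level, and 118, 108 and 120.3 later. Medians of the fibroblast list were -0.078, 0.16 and 0.004 (COL1A1 alone) and of the erythroid list -0.049, -0.12 and 0.18 (HBB alone). Those of the plasma cell list, which shares 5 genes with those described above, were -0.17, -0.008 and 0.072.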
